A study of Mus musculus with 14 samples.

Results

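Catalase (Cat), glutamate-cysteine ligase catalytic subunit (Gclc), microsomal glutathione S-transferase 3 (Mgst3), thioredoxin 1 (Txn1) and glutaredoxin 5 (Glrx5) are red cell antioxidant enzymes, and their transcripts were followed in mouse spleen. They were chosen by name, with earlier results of these data known, as probes whose only gene symbol in the platform annotation was one of these 5. Each gene had 1 probe, so the set was 5 of 15247 probes and 5 of 6288 measured genes with a probe of a single symbol. The probes are cDNA clones with the accessions AW558591 (Cat), AA409908 (Gclc), AW558463 (Mgst3), AW550880 (Txn1) and AU020725 (Glrx5), and the genes lie on mouse chromosomes 2, 9, 1, 4 and 12 in that order. Spleen RNA of AcB61 mice (8 arrays) and of AcB55 mice (6 arrays) was cohybridised with A/J spleen RNA, which made up the second of the 2 channels throughout. Both AcB strains are inbred recombinant congenic lines that carry C57BL/6 segments on an A/J background. The title of the series names malaria resistance. Infection, treatment, age and sex of the mice are not given in the labels, nor is it given which arrays shared a mouse or an RNA pool. A/J was never hybridised against A/J, so its own spread enters no test. The dye of each channel is not stated, so a dye effect shared by all arrays could not be told apart from a difference from A/J.

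Red cells carry haemoglobin and oxygen together and lack a nucleus, and they live on the antioxidant proteins made while they matured. Catalase and the peroxidases remove hydrogen peroxide, and thioredoxin and the glutaredoxins reduce oxidised protein thiols. Glutathione is the main small thiol, and Gclc is the catalytic subunit of the rate-limiting enzyme of its synthesis. Both AcB55 and AcB61 are known, from work outside these files, to carry a defective Pklr gene, which encodes the pyruvate kinase of red cells and liver; such mice have haemolytic anaemia and make many red cells in the spleen. Pklr itself was not analysed here.

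Values are log2 ratios. Their direction is likely strain over A/J, since on all 14 arrays channel 1 is labelled with the strain and channel 2 with A/J, but the dye of each channel and the log base are not stated. Each array had a value for 14197 to 14588 probes. Replicates are numbered in the order of deposit. Before the results, 3 sets of arrays need naming. Among AcB61 arrays, replicates 2, 6 and 8 correlated with each other over all features at r = 0.788 to 0.833 and replicates 3, 5 and 7 at 0.704 to 0.795, but the sets correlated with each other at only -0.089 to 0.151. Replicates 1 and 4 lay between, at 0.368 to 0.638 with the first set and 0.365 to 0.612 with the second. In AcB55, replicates 1 and 2 correlated with the AcB61 arrays at 0.21 to 0.521, the other 4 at -0.005 to 0.267. The labels give no reason for these sets. For the 5 enzymes, means and differences without a set are given where they bear on a call; the exact tests and the correlations use all arrays.

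**Figure D1:**
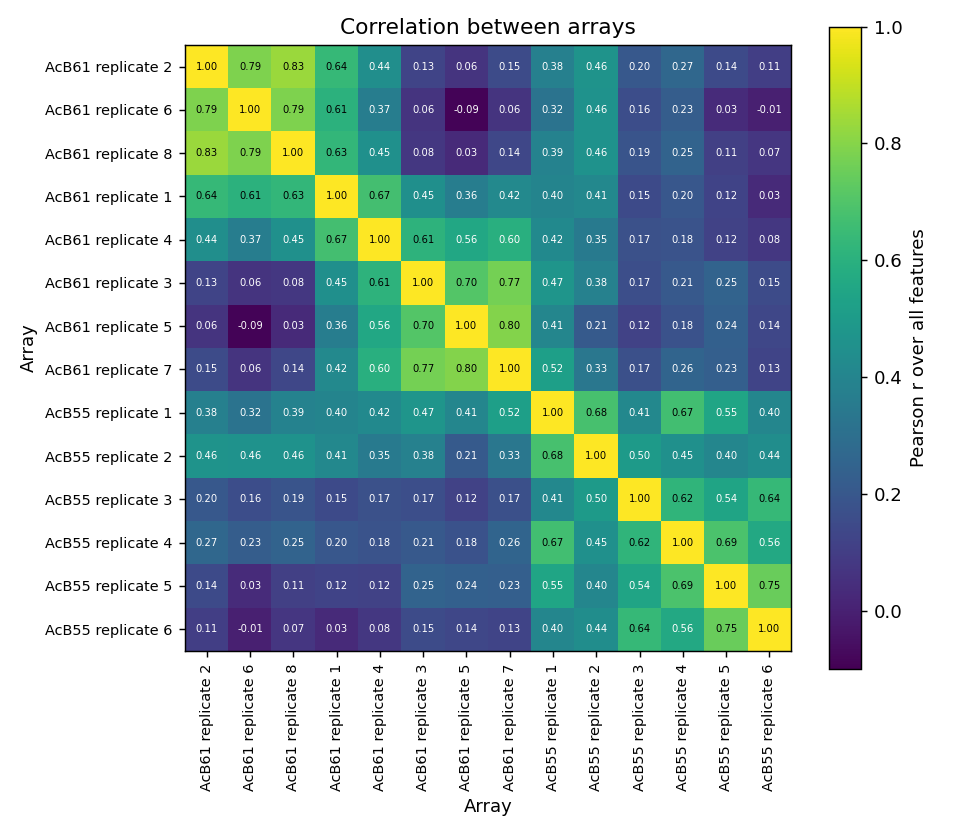
Pearson r between every pair of the 14 arrays over all features, AcB61 above and left of AcB55, with AcB61 replicates ordered 2, 6, 8, 1, 4, 3, 5, 7. Replicates 2, 6 and 8 and replicates 3, 5 and 7 of AcB61 form separate bright squares, with r between -0.089 and 0.151 across them.

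In AcB61 all 5 transcripts were higher than in A/J, and in AcB55 4 of the 5, all but Txn1. The largest mean ratios were those of Glrx5 and Mgst3 in AcB61 (1.85-fold and 1.80-fold) and of Cat in AcB55 (1.77-fold). Between the strains, Glrx5 and Txn1 were higher and Cat was lower in AcB61 than in AcB55, and Gclc and Mgst3 did not pass the test. Of all 13045 features tested, 23.8% passed in AcB61 (10.5% higher and 13.3% lower than in A/J) and 20.7% in AcB55 (9.77% higher and 10.9% lower than in A/J). Between the strains 12.3% passed, 5.29% higher and 6.98% lower in AcB61 than in AcB55. The median ratio of the 5 genes was 0.52 in AcB61 and 0.57 in AcB55, beside -0.00067 and -0.00195 over all features. As the genes were chosen with earlier results of these data known, this contrast is a description and not independent evidence. Tests are limma's moderated tests over all 14 arrays, with Benjamini-Hochberg adjustment over all features and a threshold of 0.05. Both strains were set against A/J, so their ratios are not independent evidence of one another. In whole spleen, more cells of a type and more RNA per cell cannot be told apart.

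**Figure D2:**
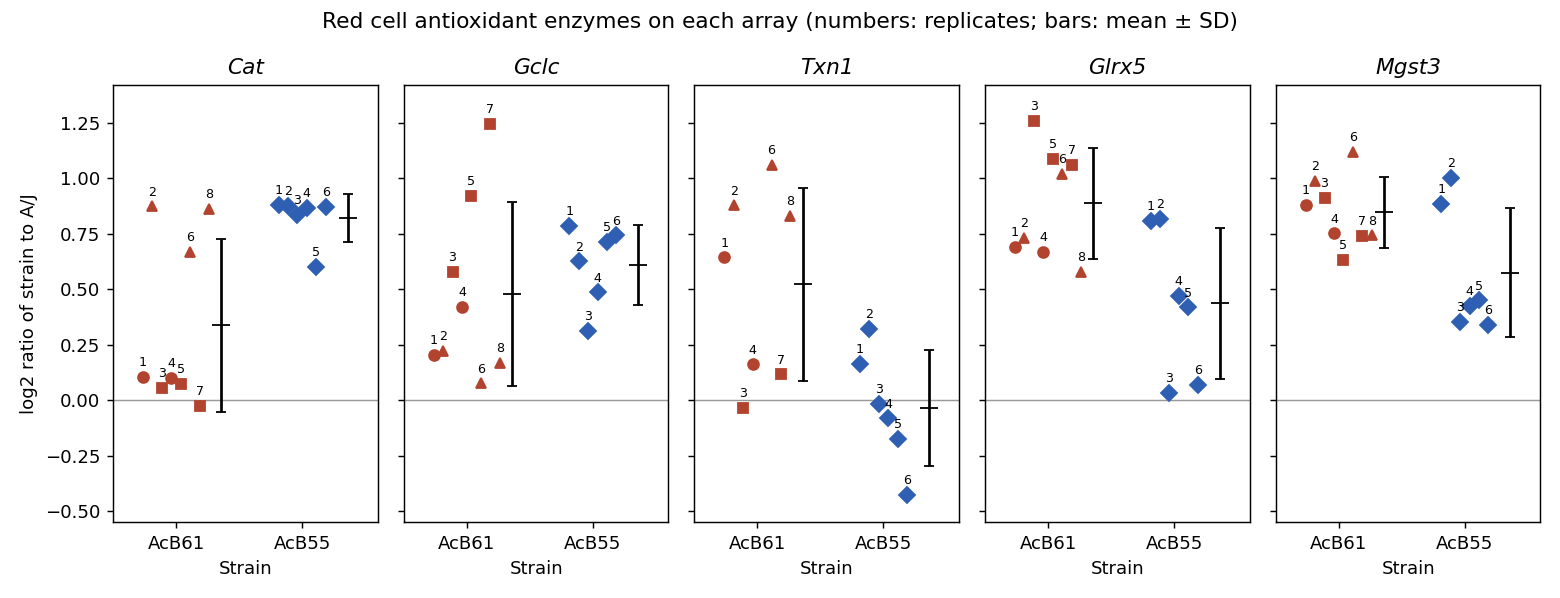
Log2 ratios to A/J of Cat, Gclc, Txn1, Glrx5 and Mgst3 on each AcB61 array (red) and AcB55 array (blue), with replicate numbers. AcB61 replicates 2, 6 and 8 are triangles, 3, 5 and 7 squares, 1 and 4 circles, and bars are mean ± SD over arrays. Cat on AcB61 arrays lies either at 0.67 to 0.87 or at -0.03 to 0.10, while Mgst3 lies at 0.63 to 1.12 on all 8.

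Catalase, which splits hydrogen peroxide into water and oxygen, showed 2 levels in AcB61 and 1 in AcB55. On AcB61 replicates 1 to 8 the log2 ratios of Cat were 0.10, 0.87, 0.06, 0.10, 0.07, 0.67, -0.03 and 0.86. On AcB55 replicates 1 to 6 they were 0.88, 0.88, 0.84, 0.87, 0.60 and 0.87. Replicates 2, 6 and 8 of AcB61 thus lay within or near the AcB55 range, and the other 5 lay below every AcB55 array with no value between 0.10 and 0.67. The mean of Cat was 0.34 ± 0.39 in AcB61 (SD, n = 8, limma adjusted p = 0.0142) and 0.82 ± 0.11 in AcB55 (SD, n = 6, limma adjusted p = 3.42e-05). The difference of AcB61 minus AcB55 was -0.48 ± 0.14 (SE, limma adjusted p = 0.0379). Without AcB61 replicates 2, 6 and 8 the AcB61 mean of Cat was 0.061 and no longer passed (limma adjusted p = 0.458), and the difference from AcB55 was -0.76 (limma adjusted p = 2.8e-05). Without AcB61 replicates 3, 5 and 7 the AcB61 mean was 0.52 (limma adjusted p = 0.00112), and the difference of -0.30 no longer passed (limma adjusted p = 0.135).

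Gclc, the catalytic subunit of the rate-limiting enzyme of glutathione synthesis, was higher than in A/J in both strains and had its high and low AcB61 arrays the other way round. The Gclc log2 ratios on AcB61 replicates 1 to 8 were 0.20, 0.22, 0.58, 0.42, 0.92, 0.08, 1.24 and 0.17, and on AcB55 replicates 1 to 6 they were 0.78, 0.62, 0.31, 0.48, 0.71 and 0.74. Replicates 3, 5 and 7 of AcB61, low for Cat, were the highest for Gclc, replicates 2, 6 and 8 were among the 4 lowest, and the ranges of the strains overlapped. Gclc averaged 0.48 ± 0.41 in AcB61 (SD, n = 8, limma adjusted p = 0.00252) and 0.61 ± 0.18 in AcB55 (SD, n = 6, limma adjusted p = 0.00111). The difference of -0.13 did not pass (limma adjusted p = 0.635), and its 95% interval of -0.46 to 0.20 includes values in either direction. This difference was 0.063 without AcB61 replicates 2, 6 and 8 (limma adjusted p = 0.809) and -0.39 without replicates 3, 5 and 7, where it passed (limma adjusted p = 0.00752). The AcB61 mean itself was 0.67 and 0.22 in these settings and passed in both (limma adjusted p = 0.000327 and 0.0291). Without AcB55 replicates 1 and 2 the AcB55 mean of Gclc was 0.56 (limma adjusted p = 0.0204) and the difference -0.084 (limma adjusted p = 0.814).

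Mgst3, a membrane enzyme that joins glutathione to reactive lipids and reduces lipid peroxides, had the narrowest range of the 5 in AcB61. Its log2 ratios on AcB61 replicates 1 to 8 were 0.88, 0.99, 0.91, 0.75, 0.63, 1.12, 0.74 and 0.74. On AcB55 replicates 1 and 2 Mgst3 read 0.88 and 1.00, and on replicates 3 to 6 it read 0.35, 0.42, 0.45 and 0.34. The first 2 AcB55 arrays lay inside the AcB61 range and the other 4 below all of it. The mean was 0.85 ± 0.16 in AcB61 (SD, n = 8, limma adjusted p = 7.13e-07) and 0.57 ± 0.29 in AcB55 (SD, n = 6, limma adjusted p = 8.16e-05). The difference of Mgst3 between the strains, 0.27 with a 95% interval of 0.037 to 0.50, did not pass after adjustment over all features (limma adjusted p = 0.119), and without AcB55 replicates 1 and 2 it was 0.45 and passed (limma adjusted p = 0.00385). The AcB55 mean without these arrays, 0.39, still passed (limma adjusted p = 0.00169), as did the AcB61 mean without either set of AcB61 arrays (0.78 and 0.90). AcB55 replicates 1 and 2 also had the highest means of the 4 measured granulocyte markers S100a9, Lcn2, Ltf and Hdc, at 1.05 and 1.31 against -0.045 to 0.15 on the other AcB55 arrays, and AcB61 arrays had 0.27 to 0.75. The 4 markers did not move together. Hdc read 0.044 and -0.092 on AcB55 replicates 1 and 2. In AcB61 S100a9 and Lcn2 rose, Hdc fell and Ltf did not pass, and in AcB55 only Lcn2 passed. The part of granulocytes in the Mgst3 ratio was not tested.

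Txn1, the cytosolic thioredoxin that keeps protein thiols reduced and passes electrons to the peroxiredoxins, was measured on 13 arrays, with no value on AcB61 replicate 5. Its log2 ratios were 0.64 and 0.88 on AcB61 replicates 1 and 2, -0.03 and 0.16 on replicates 3 and 4, and 1.06, 0.12 and 0.83 on replicates 6, 7 and 8. On AcB55 replicates 1 to 6 Txn1 read 0.16, 0.32, -0.02, -0.08, -0.17 and -0.43. The 4 high AcB61 arrays, replicates 1, 2, 6 and 8, lay above every AcB55 array, and the 3 low ones lay within the AcB55 range. Txn1 averaged 0.52 ± 0.43 in AcB61 (SD, n = 7, limma adjusted p = 0.00389), against -0.036 ± 0.26 in AcB55 (SD, n = 6, limma adjusted p = 0.902), where the 95% interval was -0.30 to 0.23. The strains differed by 0.56 ± 0.17 (SE, limma adjusted p = 0.0452). Without AcB61 replicates 2, 6 and 8 neither the AcB61 mean of 0.22 nor the difference of 0.26 passed (limma adjusted p = 0.168 and 0.229), and without replicates 3, 5 and 7 they were 0.71 and 0.75 and both passed (limma adjusted p = 0.000167 and 0.0027). Without AcB55 replicates 1 and 2 the AcB55 mean of Txn1 was -0.18 (limma adjusted p = 0.528) and the difference of 0.70 passed (limma adjusted p = 0.0268).

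Glrx5, a mitochondrial glutaredoxin that hands on newly made iron-sulphur clusters and is needed for haem synthesis in red cell precursors, had the highest mean ratio in AcB61. Its log2 ratios on AcB61 replicates 1 to 8 were 0.69, 0.73, 1.26, 0.67, 1.09, 1.02, 1.06 and 0.58. On AcB55 replicates 1 to 6 Glrx5 read 0.81, 0.82, 0.03, 0.47, 0.42 and 0.07. Every AcB61 array was above AcB55 replicates 3 to 6, and AcB55 replicates 1 and 2 were inside the AcB61 range. The mean was 0.89 ± 0.25 in AcB61 (SD, n = 8, limma adjusted p = 3.28e-06) and 0.44 ± 0.34 in AcB55 (SD, n = 6, limma adjusted p = 0.00562), and the difference was 0.45 ± 0.14 (SE, limma adjusted p = 0.0419). The AcB55 mean of Glrx5 without replicates 1 and 2, 0.25, did not pass (limma adjusted p = 0.146), while the difference between the strains was then 0.64 (limma adjusted p = 0.00558). The AcB61 mean of Glrx5 was 0.95 without AcB61 replicates 2, 6 and 8 and 0.74 without replicates 3, 5 and 7, and passed in both (limma adjusted p = 2.72e-05 and 8.04e-05). The difference was 0.52 without AcB61 replicates 2, 6 and 8 (limma adjusted p = 0.0234) and 0.30 without replicates 3, 5 and 7, where it did not pass (limma adjusted p = 0.14).

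The ratios of Gclc, Mgst3 and Glrx5 were above 0 on 8 of 8 AcB61 arrays, those of Cat on 7 of 8 and those of Txn1 on 6 of 7. In AcB55 the ratios of Cat, Gclc, Mgst3 and Glrx5 were above 0 on 6 of 6 arrays and that of Txn1 on 2 of 6. Over all features, 6.52% were above 0 on every AcB61 array that measured them and 10.6% on every AcB55 array. An exact two-sided sign-flip test of the AcB61 mean gave p = 0.00781 for Gclc, Mgst3 and Glrx5, the smallest 8 arrays allow, 0.0156 for Cat and 0.0312 for Txn1. In AcB55 it gave 0.0312, the smallest 6 arrays allow, for Cat, Gclc, Mgst3 and Glrx5, and 0.719 for Txn1. None of the 5 genes had strain ranges that did not overlap, which 2.67% of all features had. An exact two-sided permutation test of AcB61 against AcB55 gave unadjusted p = 0.017 for Cat, 0.0147 for Glrx5, 0.0268 for Txn1, 0.0453 for Mgst3 and 0.485 for Gclc.

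The differences between the strains were also sensitive to single arrays. When each of the 14 arrays was left out in turn, the difference of Cat passed in 4 of 14 fits (-0.56 to -0.43, limma adjusted p = 0.0138 to 0.0819), that of Glrx5 in 6 of 14 (0.37 to 0.53, limma adjusted p = 0.0211 to 0.118) and that of Txn1 in 6 of 14 (0.47 to 0.65, limma adjusted p = 0.017 to 0.119). Their direction was the same in all of these fits.

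**Figure D3:**
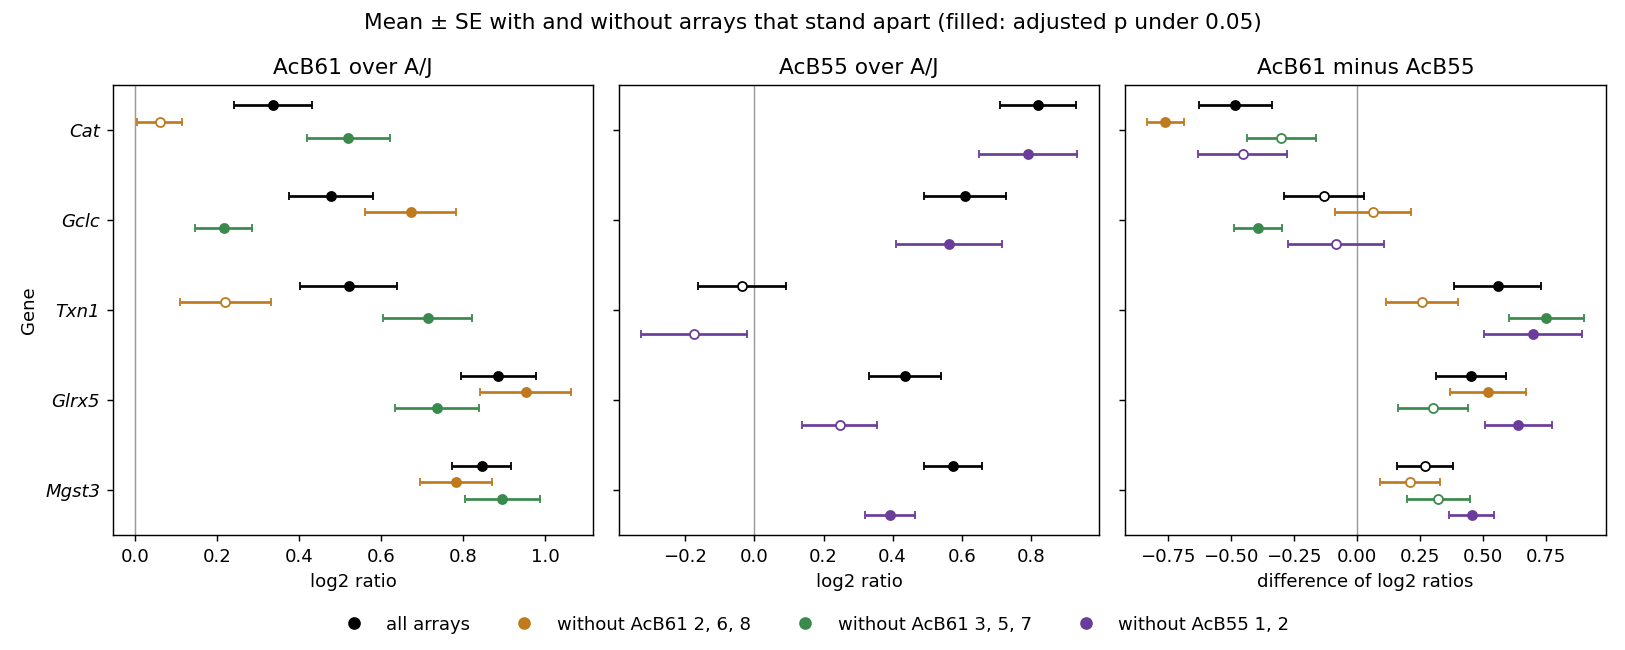
Mean log2 ratio (left and middle) or difference of log2 ratios (right) ± SE for each gene, with all arrays and without the sets of arrays that stand apart. Filled points passed an adjusted p of 0.05. Cat and Txn1 in AcB61 passed with all arrays but not without replicates 2, 6 and 8, whereas Glrx5 and Mgst3 in AcB61 passed in every setting shown.

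The AcB61 values of Cat, Txn1, Gclc and Glrx5 separated the array sets named above, as those of many other features did. Replicates 2, 6 and 8 were all above every measured array among replicates 3, 5 and 7 for Cat and Txn1, and all below them for Gclc. For Glrx5 they were also all below, by a narrow gap, at 0.58 to 1.02 against 1.06 to 1.26. For Mgst3 the sets overlapped. Of 13014 features, 31% were separated upward and 25% downward, 56% in all, beside 4 of the 5 genes, and nothing particular to the 5 is read from this. Ranges tend to widen with more arrays, and these cover 8 in AcB61 (7 for Txn1) and 6 in AcB55. The range over arrays was 1.17 for Gclc, 1.10 for Txn1 and 0.90 for Cat in AcB61, against 0.47, 0.75 and 0.28 in AcB55. The SDs were 0.41, 0.43 and 0.39 against 0.18, 0.26 and 0.11. For Glrx5 and Mgst3 the range was 0.68 and 0.49 in AcB61, against 0.79 and 0.66 in AcB55. Among 5796 other named genes measured on all 14 arrays, those whose ratios were most like Cat by Pearson's r were Nusap1 (0.97), a spindle protein, Rif1 (0.939) and Neil3 (0.938), both of DNA maintenance. For Gclc they were Cdca7 (0.931), Fhdc1 (0.917) and Dcaf1 (0.897). For Mgst3 they were Cnppd1 (0.95), the granulocyte protein S100a9 (0.938) and Ubac1 (0.924). The ribosomal protein gene Rpl34 (0.981), the importin Ipo9 (0.975) and Zkscan1 (0.975) were most like Txn1 over its 13 arrays. The chaperonin subunit Cct2 (0.951), the adaptor subunit Ap2m1 (0.944) and the mitochondrial carrier Slc25a39 (0.917) were most like Glrx5. These correlations describe arrays that share A/J as partner and fall into the sets above.

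The members differ in the letters before their start sites, which are shown because the 4 windows hold different numbers of 2 common promoter elements. The 250 bases before the start of 4 of the 5 genes were taken from RefSeq (GRCm38.p6), Gclc being the other one, and run 5′ to 3′ along the gene. Capitals mark CCAAT and GGGCGG on either strand, the letters of the CCAAT box and the GC box.
Cat, chr2:103485154-103485403, minus strand: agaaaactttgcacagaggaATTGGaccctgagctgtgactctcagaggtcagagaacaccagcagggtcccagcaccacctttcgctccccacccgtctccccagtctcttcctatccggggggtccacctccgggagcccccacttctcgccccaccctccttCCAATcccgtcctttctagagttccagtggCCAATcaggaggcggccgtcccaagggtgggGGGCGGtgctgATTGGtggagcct
Glrx5, chr12:105032368-105032617, plus strand: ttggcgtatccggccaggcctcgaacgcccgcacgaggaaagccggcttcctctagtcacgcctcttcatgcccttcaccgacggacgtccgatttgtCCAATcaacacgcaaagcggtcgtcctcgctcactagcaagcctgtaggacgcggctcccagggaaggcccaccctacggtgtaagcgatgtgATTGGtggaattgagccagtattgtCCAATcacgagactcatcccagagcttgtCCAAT
Mgst3, chr1:167393842-167394091, minus strand: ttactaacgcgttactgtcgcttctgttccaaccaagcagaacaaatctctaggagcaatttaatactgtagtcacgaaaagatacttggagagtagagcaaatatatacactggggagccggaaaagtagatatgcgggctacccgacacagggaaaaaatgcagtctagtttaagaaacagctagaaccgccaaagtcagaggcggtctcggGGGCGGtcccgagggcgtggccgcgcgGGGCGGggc
Txn1, chr4:57956412-57956661, minus strand: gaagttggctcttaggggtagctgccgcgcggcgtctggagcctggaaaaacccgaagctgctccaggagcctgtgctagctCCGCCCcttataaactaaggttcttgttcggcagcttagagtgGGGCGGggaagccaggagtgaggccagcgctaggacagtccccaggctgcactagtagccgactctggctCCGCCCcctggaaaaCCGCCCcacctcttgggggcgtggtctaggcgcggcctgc
CCAAT occurs 4 times in the window of Cat and 4 times in that of Glrx5, and in 33.8% of all 32851 such windows. It does not occur in the windows of Mgst3 and Txn1. GGGCGG occurs once before Cat, 2 times before Mgst3, 4 times before Txn1 and not before Glrx5, and in 32.7% of all windows. Sites of GATA factors were searched as AGATAA, held by 10.0% of windows, as TGATAA, held by 7.9%, and as AGATAG, held by 7.7%. A KLF site was searched as CACACCC (6.9%) and the core of the antioxidant response element as TGACNNNGC (10.2%). None of these letters is in the 4 windows on either strand. CCAAT and GGGCGG were chosen after the windows were seen, and no factor was measured on them.

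The other redox genes are given by list, without the 5 enzymes. Beside the counts stand the shares of all features that passed. These were 10.5% higher and 13.3% lower in AcB61, and 9.77% higher and 10.9% lower in AcB55. Lists with counts near these shares, such as the glutathione transferases and the iron-sulphur genes, are not read as results about the list. Of 6 other measured genes that remove superoxide and peroxides, 4 rose in AcB61 (median 0.36) and 1 rose in AcB55 (median -0.003), and 0 fell in either. Prdx3, the mitochondrial peroxiredoxin, rose in AcB61 (0.63 ± 0.33) and in AcB55 (0.49 ± 0.15). Prdx4 of the endoplasmic reticulum rose in AcB61 (0.52 ± 0.21) with 0.11 ± 0.19 in AcB55, and the difference of 0.41 passed (limma adjusted p = 0.0145). The glutathione peroxidases Gpx4 (0.44 ± 0.42) and Gpx1 (0.27 ± 0.32) rose in AcB61, with -0.028 ± 0.33 and 0.016 ± 0.13 in AcB55. The Gpx1 mean rested on AcB61 replicates 1, 4 and 5 (0.74, 0.73 and 0.38). The other AcB61 arrays read -0.034 to 0.17 for Gpx1, and its AcB61 median was 0.13. No setting left out replicates 1 and 4 together. Sod1, the cytosolic superoxide dismutase, did not pass, at 0.24 ± 0.39 in AcB61 and -0.086 ± 0.29 in AcB55. Without AcB61 replicates 2, 6 and 8 its AcB61 mean was 0.46 and passed (limma adjusted p = 0.00473), and without replicates 3, 5 and 7 it was -0.011 (limma adjusted p = 0.955). Here and below ± is the SD over 8 AcB61 and 6 AcB55 arrays unless another n is given.

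Of 5 other genes of glutathione synthesis and recycling, 3 rose in AcB61 (median 0.22), and 2 rose and 1 fell in AcB55 (median 0.088). Glutathione reductase, Gsr, rose in AcB61 (0.24 ± 0.21) and AcB55 (0.42 ± 0.12). Glo1 (0.25 ± 0.17) and Esd (0.22 ± 0.12), which clear glyoxal and formaldehyde adducts of glutathione, rose in AcB61. In AcB55 the amino acid transporter chain Slc3a2 (0.33 ± 0.26) rose and Ggct (-0.26 ± 0.13), which breaks down gamma-glutamyl dipeptides, fell. Of 10 other glutathione transferases and related membrane proteins, 2 rose and 1 fell in AcB61 (median 0.023), and 0 rose and 2 fell in AcB55 (median 0.008). Gstm5 (0.47 ± 0.29) and Gstm2 (0.16 ± 0.13) rose in AcB61, Gstm1 fell in AcB61 (-0.18 ± 0.12) and AcB55 (-0.16 ± 0.095), and Gstp1 fell in AcB55 (-0.40 ± 0.16). Cross-hybridisation among the Gstm genes, which are close in sequence, makes their identity uncertain.

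Of 14 other thioredoxin and glutaredoxin genes, 3 rose and 2 fell in AcB61 (median 0.055), and 1 rose and 4 fell in AcB55 (median -0.071). Glrx, the cytosolic glutaredoxin, rose in AcB61 (0.47 ± 0.30) and AcB55 (0.30 ± 0.18), and Txnip, which binds and inhibits thioredoxin, fell in AcB61 (-0.45 ± 0.20) and AcB55 (-0.24 ± 0.088). Mitochondrial Txn2 rose (0.31 ± 0.37) and Txndc17 fell (-0.34 ± 0.28) in AcB61. Txndc12 (-0.27 ± 0.11) and Glrx3 (-0.25 ± 0.20) fell in AcB55, and Glrx3 was 0.31 higher in AcB61 than in AcB55 (limma adjusted p = 0.0271). Thioredoxin reductase, Txnrd1, did not pass, at 0.079 ± 0.17 in AcB61 and 0.039 ± 0.21 in AcB55. Of 9 other genes of iron-sulphur cluster assembly and use, 2 rose in AcB61 (median 0.06), and 1 rose and 1 fell in AcB55 (median -0.027). The mitochondrial iron carrier Slc25a37 rose in AcB61 (0.51 ± 0.20) and AcB55 (0.29 ± 0.14), Ciapin1 rose in AcB61 (0.26 ± 0.18), and Nubp1 fell in AcB55 (-0.29 ± 0.20).

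Of 6 measured genes on the list for NADPH supply, 2 rose and 0 fell in each strain (median 0.081 in AcB61 and 0.144 in AcB55). The list includes genes that do not make NADPH themselves, among them the 2 that rose. No rise of enzymes that make NADPH is read from these counts. Malic enzyme, Me1, which does make it, passed in neither strain, at -0.064 to 0.072 over AcB61 arrays and 0.0065 to 0.16 over AcB55 arrays. The mitochondrial NAD kinase Nadk2 rose in AcB61 (0.46 ± 0.31) and AcB55 (0.91 ± 0.13), with a difference of -0.45 (limma adjusted p = 0.0234), and transketolase, Tkt, rose in AcB61 (0.38 ± 0.18) and AcB55 (0.35 ± 0.21). The next list holds 14 measured genes of NRF2, the transcription factor that drives many antioxidant genes, of its partners and targets, and of other regulators such as Foxo3. Of these 5 rose in AcB61 (median 0.111), and 3 rose and 2 fell in AcB55 (median 0.026). Foxo3 is among those that rose in each strain. Nfe2l2, which encodes NRF2, was 0.0071 ± 0.11 in AcB61, against 0.34 ± 0.15 in AcB55, where it rose, and the strains differed by -0.33 (limma adjusted p = 0.00968). The haem-degrading enzyme Hmox1 was 0.093 ± 0.26 in AcB61, against 0.88 ± 0.27 in AcB55 (n = 5), where it rose, and the strains differed by -0.79 (limma adjusted p = 0.00209). In AcB61 Mafg (0.32 ± 0.30), a partner of NRF2, Bach1 (0.17 ± 0.12), a repressor of its targets, and the ferritin chain Fth1 (0.25 ± 0.22) rose. Foxo3, a regulator of antioxidant genes in red cell precursors, rose in AcB61 (0.43 ± 0.25) and AcB55 (0.31 ± 0.25), and Bach2 fell in AcB55 (-0.25 ± 0.24).

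**Figure D4:**
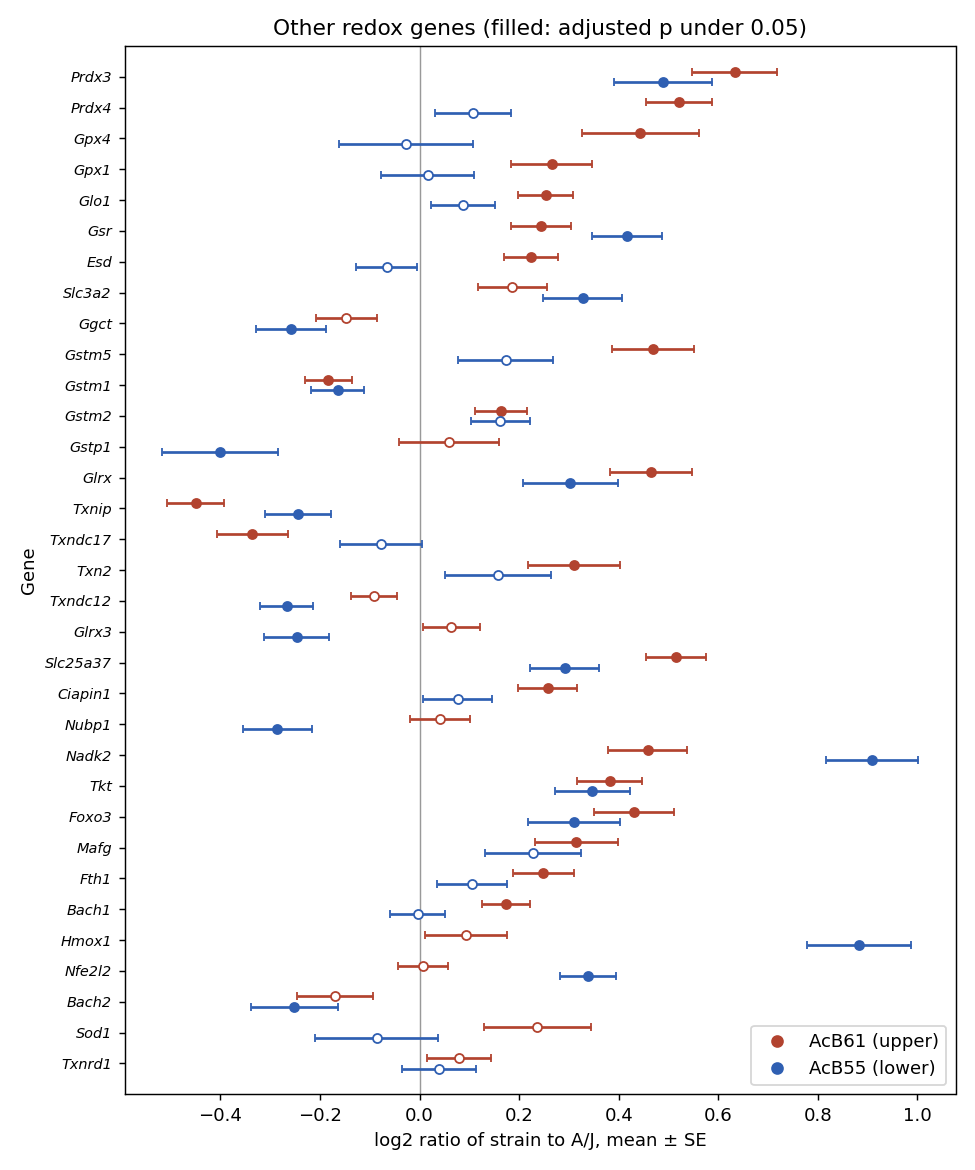
Mean log2 ratio to A/J ± SE of 33 other redox genes, AcB61 (red, upper point) and AcB55 (blue, lower point). Filled points passed an adjusted p of 0.05. Hmox1 and Nfe2l2 stand apart from 0 in AcB55 but not in AcB61, and Prdx4 in AcB61 but not in AcB55.

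Some of these calls rested on the arrays that stand apart. Without AcB61 replicates 2, 6 and 8, the AcB61 calls of Gsr, Esd, Gstm1, Gstm2, Txndc17, Ciapin1 and Mafg were lost (limma adjusted p = 0.169, 0.0534, 0.062, 0.348, 0.0614, 0.125 and 0.248). Without replicates 3, 5 and 7, those of Gpx4, Esd, Gstm1, Txn2 and Bach1 were lost (0.26, 0.07, 0.0607, 0.425 and 0.139). In AcB55, Slc25a37, Ggct, Gstm1, Glrx, Bach2 and Foxo3 no longer passed without replicates 1 and 2 (0.0769, 0.176, 0.202, 0.313, 0.449 and 0.341). Between the strains, Glrx3 and Nadk2 no longer passed without AcB61 replicates 2, 6 and 8 (0.0617 and 0.0548). The differences of Prdx4, Nfe2l2 and Hmox1 passed in all 3 settings that left out such arrays.

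Other calls appeared when these arrays were left out. Without AcB61 replicates 2, 6 and 8, Ggct (-0.24) and Bach2 (-0.30) passed in AcB61 as Sod1 did (limma adjusted p = 0.0219 and 0.0155). The differences of Sod1 (0.54), Gpx1 (0.40), Gpx4 (0.72), Gsr (-0.30), Slc25a37 (0.35) and Bach1 (0.22) then passed too (limma adjusted p = 0.015, 0.0278, 0.0054, 0.0133, 0.00806 and 0.0478). Without replicates 3, 5 and 7, Gstp1 passed in AcB61 (0.32, limma adjusted p = 0.00819), as did the differences of Gstp1 (0.72), Ggct (0.25), Txnip (-0.27) and Txndc17 (-0.43; limma adjusted p = 0.000656, 0.0279, 0.0378 and 0.00282). Without AcB55 replicates 1 and 2, the differences of Gpx4 (0.64) and Gstm5 (0.43) passed (limma adjusted p = 0.0372 and 0.0421).

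Most erythroid and cell cycle markers rose as well. Of 20 measured red cell precursor markers, such as Slc4a1 and Alas2, 16 rose and 0 fell in AcB61 (median 0.67). In AcB55 16 rose and 1, Ermap, fell (median 0.54). The alpha globin gene Hba-a1 passed in neither strain, at -0.21 to 0.29 over AcB61 arrays and -0.22 to 0.20 over AcB55 arrays. Cpox also passed in neither, Bcl2l1 and Ermap did not pass in AcB61, and Cd24a did not pass in AcB55. In AcB61, 18 of the 20 rose without replicates 2, 6 and 8 and 16 without replicates 3, 5 and 7. In AcB55 12 rose and 0 fell without replicates 1 and 2. Their mean per array was 0.50 to 0.70 in AcB61 and 0.39 to 0.67 in AcB55, and on AcB61 replicates 2, 6 and 8 (0.61, 0.59 and 0.50) it was below that on replicates 3 and 7 (0.69 and 0.70) but not all below that on replicate 5 (0.60). Of 22 markers of dividing cells, 19 rose in AcB61 (median 0.67) and 17 in AcB55 (median 0.60), and 0 fell in either. The count was 19 and 17 in AcB61 without each set in the same order, and 15 in AcB55 without replicates 1 and 2. The mean per array of these markers was 0.40 to 0.78 in AcB61 and 0.50 to 0.82 in AcB55. Of 8 macrophage markers, 1 rose and 3 fell in AcB61, and 1 rose and 5 fell in AcB55, with array means of -0.30 to -0.065 in AcB61 and -0.32 to -0.14 in AcB55. Of 9 markers of stroma and vessels, 1 rose and 6 fell in AcB61, and 0 rose and 7 fell in AcB55. Without AcB55 replicates 1 and 2, 3 macrophage and 3 stroma and vessel markers fell in AcB55, and without AcB61 replicates 2, 6 and 8, 4 stroma and vessel markers fell in AcB61. The only measured B cell marker, Blnk, fell in both strains (-0.58 in AcB61 and -1.07 in AcB55). The platelet markers Ppbp and Selp fell in AcB61 and did not pass in AcB55. The only T and NK cell marker, Satb1, fell in AcB55 (-0.18) and did not pass in AcB61. The pancreas marker Cpa1 passed in neither strain, at -0.89 to 0.48 over AcB61 arrays. On AcB55 replicate 1 Cpa1 read 2.37, on replicates 3 to 6 -2.05, -1.19, -2.65 and -3.58, and replicate 2 had no value. The cause of this spread was not tested. The part of cell make-up in the ratios of the 5 enzymes was not tested.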

How the data were processed

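Spleen RNA of AcB61 (8 arrays) and AcB55 (6 arrays) was set against A/J spleen RNA on cDNA arrays with 2 channels. Total or poly(A) RNA was labelled, the labels not saying which on which array. Per the labels, a ScanArray instrument read both dyes, QuantArray gave spot intensities, and GeneSpring took these in. How ratios were normalized is not given here by any label or header. The deposited table holds log2 ratios, read as such because the values are signed decimals with array medians of -0.0205 to 0.0087; the base is assumed, and a different one would multiply every value by the same factor. Spot intensities were not used here, so signal over background is unknown. Genes were named from the repository's platform annotation, and the gene identifiers of the 5 probes matched RefSeq's.

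Probes of a gene were averaged, and the 13045 features with at least 3 arrays of each strain (6286 named genes) were tested with R 4.3.3 and limma 3.58.1: a mean per strain over 14 arrays, no covariate, eBayes, two-sided, Benjamini-Hochberg over all features. The fit was tested on simulated data. Their noise was independent between arrays, without the array sets named above, so that test cannot speak for calls that depend on those sets. Each array counted as a replicate, so p-values reflect differences among arrays that could be technical in origin. Exact tests and figures used Python 3.11.15.

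The 5 genes and all lists were chosen with earlier results of these data known. Named genes are the 5, the 3 most alike to each, and up to 4 genes of each redox list and strain past the threshold, with Sod1, Gpx1, Gsr, Txnrd1, Nfe2l2 and Hmox1. Settings without the arrays that stand apart were chosen after seeing the data.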

Additional observations from a re-analysis of the deposited data

Results flagged for a closer look

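A single array lay far from the others of its strain for 3 named genes. Cat read 0.60 on AcB55 replicate 5, against 0.84 to 0.88 on the other 5 AcB55 arrays. Gstm1 read -0.34 on AcB55 replicate 2, and Txnrd1 read -0.38 on AcB55 replicate 6. Chance marks about 1 in 20 groups in this way, and 76 groups of arrays were looked at.

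The strains differed in their ratio to A/J, by the test of AcB61 minus AcB55, for 3 of the 5 enzymes: Cat (-0.48), Glrx5 (0.45) and Txn1 (0.56). The same test passed for the redox genes Prdx4 (0.41), Esd (0.29), Glrx3 (0.31), Nubp1 (0.33), Nadk2 (-0.45), Hmox1 (-0.79) and Nfe2l2 (-0.33). Over all features 12.3% passed. The call of Esd was lost without AcB61 replicates 2, 6 and 8 and without replicates 3, 5 and 7 (limma adjusted p = 0.0647 and 0.0739), that of Nubp1 without replicates 3, 5 and 7 (0.0718), and that of Nadk2 without AcB55 replicates 1 and 2 (0.0635).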

How the results depend on the processing

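No paired analysis was possible because the replicate numbers only follow the order of deposit. Leaving out each array in turn, all AcB61 means of the 5 genes over A/J passed, with Cat at 0.26 to 0.39, as did the AcB55 means of Cat, Gclc, Mgst3 and Glrx5. Txn1 in AcB55 never passed and lay between -0.11 and 0.042, the positive value being that without AcB55 replicate 6. Between the strains these fits gave -0.56 to -0.43 for Cat, -0.24 to -0.074 for Gclc, 0.22 to 0.36 for Mgst3, 0.47 to 0.65 for Txn1 and 0.37 to 0.53 for Glrx5. Mgst3 passed in 1 of 14 and Gclc in 0. The count of features that differed, 1601, was 854 to 1694 in these fits, 2826 with array weights and 705 without arrays marked b in their titles. Without arrays marked b the differences of Cat (-0.47), Glrx5 (0.36) and Txn1 (0.55) did not pass (limma adjusted p = 0.127, 0.179 and 0.135), and with array weights that of Mgst3 (0.31) passed (0.025). Fitted on AcB61 arrays only, Cat over A/J (0.34) did not pass (0.0577).

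In settings chosen after seeing the data, the count was 2545 without AcB61 replicates 2, 6 and 8 and 2781 without replicates 3, 5 and 7. Without replicates 2, 6 and 8, Cat (0.061) and Txn1 (0.22) over A/J and the Txn1 difference (0.26) lost their calls, and the Gclc difference changed sign (0.063). Without replicates 3, 5 and 7, the differences of Cat (-0.30) and Glrx5 (0.30) lost their calls and that of Gclc (-0.39) passed. Without AcB55 replicates 1 and 2, Glrx5 in AcB55 (0.25) and the Cat difference (-0.45, limma adjusted p = 0.0932) lost their calls, and the Mgst3 difference (0.45) passed. The cause was not tested. Txn1 has no value where only features with all 14 arrays were kept. Signal over background was not used here, so its limit on these ratios is unknown.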

Other observations

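On 12 of 14 arrays the ratio of Gpx1, an abundant peroxidase of red cells, lay within 0.15 (log2) of that of the alpha globin gene Hba-a1. The exceptions were AcB61 replicates 1 and 4, where Gpx1 read 0.74 and 0.73, against 0.06 and -0.21 for Hba-a1. This closeness was not particular to Gpx1. Tyms, a marker of dividing cells, lay close to Hba-a1 on every AcB61 array, such as 0.17 against 0.18 on replicate 7. On AcB55 replicates 1, 3, 4 and 5 it did not, at -0.35, -0.026, -0.33 and -0.25 against 0.20, -0.22, 0.00097 and 0.12. Gpx1, Fth1 and Ftl1 all read 0.17 on AcB61 replicate 7. Why these ratios lie so close was not tested.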
